A study of Mus musculus with 16 samples.

Results

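Medium spiny neurons, also called spiny projection neurons, are the output neurons of the striatum, and 8 genes that mark them were followed here through the right neocortex of mice with and without removal of the left cortex. The genes are Drd2, Adora2a, Penk, Gpr6, Tac1, Ppp1r1b, Rgs9 and Pde10a, 8 of the 20134 genes that had a value on all arrays. The 8 were selected on the surgery-minus-control changes seen earlier in these same pools, so those changes are described below without a test and are not evidence for the choice. Each gene was read from its probe with the highest mean signal, and all 8 probes were well above background on all 16 arrays.

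Medium spiny neurons are GABA neurons of the caudate, putamen, accumbens and olfactory tubercle, and fall into a direct and an indirect output pathway. Direct pathway cells carry the stimulatory dopamine receptor Drd1 and the peptide precursor Tac1, while indirect pathway cells carry the inhibitory dopamine receptor Drd2, the adenosine receptor Adora2a and the opioid precursor Penk. Both kinds of cell use Ppp1r1b, Rgs9 and Pde10a to handle cyclic AMP and receptor signals downstream of dopamine. The mouse neocortex lies directly over the striatum and does not contain medium spiny neurons, although some cortical neurons also make several of these transcripts, such as Penk and Tac1 in subsets of interneurons and Ppp1r1b in deep layers.

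The tissue was the right, unlesioned neocortex rostral of bregma from male C57BL/6J mice, and the lesion was an aspiration of left cortex that took in the sensorimotor area. Unoperated controls were taken at postnatal day (P) 7, P14, P35 and 10 weeks. Neonatal brain hemisuction (NBH) was done at P7 and the cortex taken 1 week later, at P14, or 4 weeks later, at P35. Adult brain hemisuction (ABH) was done at 8 to 12 weeks and the cortex taken 1 week or 4 weeks later, labeled as 11 and 15 weeks of age. RNA of 4 animals was pooled in each of the 8 conditions, and 1 slide carried all pools in Cy3, the other all pools in Cy5. The 2 arrays of a pool therefore repeat the same RNA, the SD given below is that of the 2 dyes, and no p-value can be given. Each NBH pool was set against its age-matched control, and both ABH pools shared the 10-week control. The 10-week control was 1 week younger than the ABH 1 week pool and 5 weeks younger than the ABH 4 weeks pool by the labels. Control pools lay in one row and surgery pools in the other row of each slide, so position and surgery cannot be told apart.

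Between 60.2% and 72.2% of the gene spots of an array were well above background, at a median signal of 192.5 to 253.0 units over a local background of 59.0 to 72.0 units. The summed level of 8 markers of choroid plexus, the tissue that makes cerebrospinal fluid, separated the pools. It lay between 0.69 and 1.30 on the log2 scale in the 4 controls and in ABH 1 week, but between 4.11 and 5.18 in both NBH pools and in ABH 4 weeks. Signals were summed before the log, and the high sums were mostly Ttr, at 5.05 in NBH 1 week, 3.94 in NBH 4 weeks and 4.66 in ABH 4 weeks. The other markers did not all follow: Clic6 changed by -0.26 in NBH 4 weeks and Aqp1 by 1.55 in ABH 1 week. All 12 cortical excitatory neuron markers were well above background in every pool, with summed levels between 6.10 and 6.53. Of 34 further genes of medium spiny neurons, 31 were well above background on all 16 arrays. In whole tissue of this kind, fewer cells of a type and less RNA per cell cannot be told apart. Penk and Ppp1r1b were so bright that their probes were saturated in some pools, on 5 and 3 arrays respectively, and their differences from those pools are lower limits.

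The promoter windows of one direct pathway gene and of both indirect pathway receptors that had one are shown, as examples of the regulatory sequence of both pathways. Windows of 250 bases before to 50 bases after the start were matched for 5 of the 8 genes, Drd2, Gpr6, Tac1, Rgs9 and Pde10a, and are RefSeq sequence of build GRCm38.p6, which is not the mm9 build named in the submitters' files. The Tac1 window is chr6:7554811-7555110 (+), the Drd2 window chr9:49340153-49340452 (+) and the Gpr6 window chr10:41072241-41072540 (-). Capitals mark the GC box GGGCGG or CCGCCC, the core of the cyclic AMP response element, TGACG or CGTCA, and the TATA box TATAAA or TTTATA.
Tac1: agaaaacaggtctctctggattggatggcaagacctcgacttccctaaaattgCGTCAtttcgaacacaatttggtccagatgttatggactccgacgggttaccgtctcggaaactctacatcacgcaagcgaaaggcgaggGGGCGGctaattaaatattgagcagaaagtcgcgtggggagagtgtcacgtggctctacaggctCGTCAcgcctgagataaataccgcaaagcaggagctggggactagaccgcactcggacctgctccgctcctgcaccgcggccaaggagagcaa
Drd2: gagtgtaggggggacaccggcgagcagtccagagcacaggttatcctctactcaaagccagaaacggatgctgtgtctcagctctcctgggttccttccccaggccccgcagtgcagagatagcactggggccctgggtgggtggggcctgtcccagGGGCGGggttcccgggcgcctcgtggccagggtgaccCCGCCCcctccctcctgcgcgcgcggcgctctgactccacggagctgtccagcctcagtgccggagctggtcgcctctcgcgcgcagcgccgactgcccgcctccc
Gpr6: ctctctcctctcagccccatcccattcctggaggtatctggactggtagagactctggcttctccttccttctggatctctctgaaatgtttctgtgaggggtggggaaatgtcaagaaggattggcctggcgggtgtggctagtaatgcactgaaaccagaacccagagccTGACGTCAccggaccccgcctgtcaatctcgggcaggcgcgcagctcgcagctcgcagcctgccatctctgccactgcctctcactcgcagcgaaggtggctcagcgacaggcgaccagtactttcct
The Gpr6 window holds the full cyclic AMP response element TGACGTCA, which reads the same on both strands and contains the core on each, beginning at position -78 from the start. That element was present in 1.79% of the 32851 promoter windows of the mouse. The Tac1 window holds the core at 2 places, positions -197 and -43, and 20.8% of all windows hold at least 1. The GC box was found in the Tac1 and Drd2 windows, and in 5 of the 6 windows of these genes (Pde10a has 2), against 35.7% of all windows. The windows differed in base composition, with 54.0% G and C in Tac1, 70.3% in Drd2 and 58.7% in Gpr6, beside a median of 52.7%. These matches describe letters only.

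All levels are log2 signals of a probe minus the 75th percentile of its array, so they can be compared between pools within a gene but not between genes. Every one of the 8 genes was lowest in control P7, and the dye values of that pool overlapped with those of no other pool. From P7 to P14 all 8 rose 1.5-fold or more with both dyes, beside 8.58% of the 15463 genes compared. Penk rose 9.82-fold, Adora2a 5.53-fold, Ppp1r1b 5.29-fold, Pde10a 3.49-fold, Tac1 3.45-fold, Rgs9 3.17-fold, Drd2 1.92-fold and Gpr6 1.54-fold. The rise of Penk and of Ppp1r1b includes 1 saturated array of the P14 pool each.

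**Figure D1:**
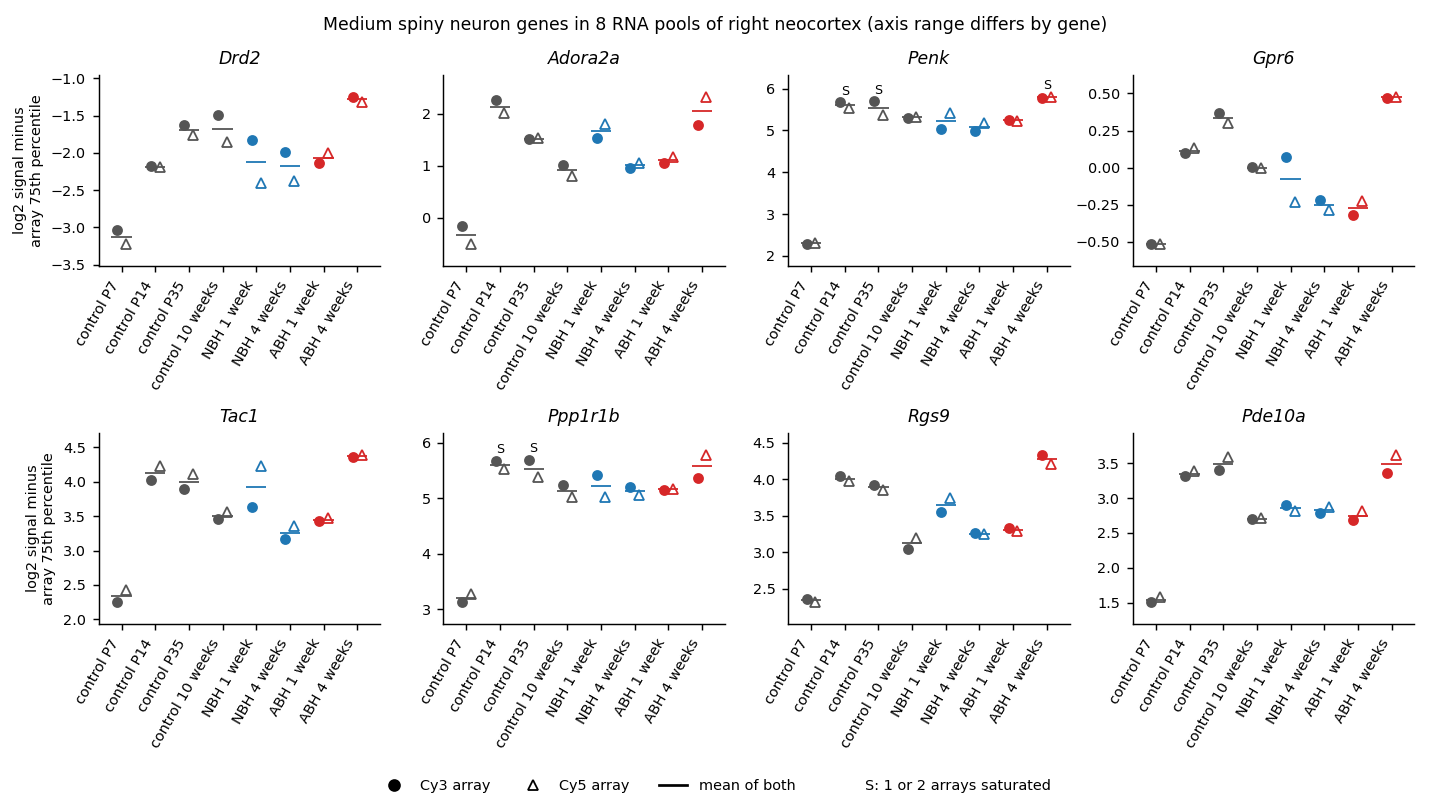
Level of each gene in the 8 pools, as log2 signal minus the array's 75th percentile (vertical axis), with the Cy3 array as a filled circle, the Cy5 array as an open triangle and their mean as a bar; gray marks controls, blue NBH and red ABH, and S marks pools with saturated arrays. All 8 genes are lowest in control P7, and ABH 4 weeks is the highest pool for Drd2, Gpr6, Tac1 and Rgs9.

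Among the indirect pathway genes, Drd2 stood at -3.13 ± 0.13 in control P7, -2.19 ± 0.01 in P14, -1.69 ± 0.09 in P35 and -1.68 ± 0.26 in the 10-week control (SD of 2 dyes). After NBH it stood at -2.12 ± 0.41 at 1 week and -2.18 ± 0.28 at 4 weeks, and after ABH at -2.07 ± 0.09 and -1.28 ± 0.05, respectively. ABH 4 weeks was thus above every other pool with both dyes, whereas P14 and the 3 other surgery pools formed one run of overlapping values. Adora2a, whose receptor opposes Drd2 in the same cells, stood at -0.33 ± 0.24, 2.14 ± 0.18, 1.52 ± 0.02 and 0.91 ± 0.15 in the controls from P7 to 10 weeks. Its levels at 1 and 4 weeks were 1.67 ± 0.19 and 1.00 ± 0.06 after NBH, and 1.11 ± 0.07 and 2.05 ± 0.39 after ABH. Between P14 and P35 Adora2a fell by 0.62, more than any other of the 8, and ABH 4 weeks overlapped with P14 and NBH 1 week.

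Penk, which encodes the precursor of the enkephalins, stood at 2.31 ± 0.02, 5.60 ± 0.10, 5.54 ± 0.23 and 5.31 ± 0.02 in the controls from P7 to 10 weeks. At 1 and 4 weeks it stood at 5.23 ± 0.27 and 5.09 ± 0.14 after NBH, and at 5.24 ± 0.01 and 5.79 ± 0.03 after ABH. Both arrays of P35 and of ABH 4 weeks were saturated, so the order of Penk among its brightest pools is not known. Gpr6, an orphan receptor enriched in indirect pathway cells, had the smallest range of the 8 genes, 0.99 on the log2 scale. Its controls stood at -0.51 ± 0.00, 0.11 ± 0.02, 0.33 ± 0.05 and 0.00 ± 0.00 from P7 to 10 weeks. The NBH pools were at -0.08 ± 0.22 (1 week) and -0.25 ± 0.05 (4 weeks), and the ABH pools at -0.27 ± 0.06 (1 week) and 0.47 ± 0.01 (4 weeks). The 2 dyes of Gpr6 did not overlap between ABH 4 weeks and any other pool.

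Tac1, the direct pathway gene that encodes the precursor of substance P, stood at 2.34 ± 0.12 in control P7, 4.12 ± 0.14 in P14, 4.00 ± 0.16 in P35 and 3.51 ± 0.07 at 10 weeks. After NBH it stood at 3.92 ± 0.42 at 1 week and 3.26 ± 0.14 at 4 weeks, and after ABH at 3.45 ± 0.03 and 4.38 ± 0.02. NBH 4 weeks was the lowest pool after P7 and did not overlap with the next, and ABH 4 weeks lay above all others with both dyes.

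Of the genes of both pathways, Ppp1r1b, which encodes the phosphatase inhibitor DARPP-32, stood at 3.20 ± 0.10, 5.61 ± 0.10, 5.54 ± 0.23 and 5.13 ± 0.16 in the controls from P7 to 10 weeks. At 1 and 4 weeks it was at 5.23 ± 0.28 and 5.14 ± 0.10 after NBH, and at 5.16 ± 0.01 and 5.58 ± 0.30 after ABH. Every neighbor in its order after P7 overlapped between dyes, and both P35 arrays were saturated. Rgs9, which speeds the shutdown of G protein signals, stood at 2.34 ± 0.03, 4.01 ± 0.05, 3.89 ± 0.04 and 3.12 ± 0.11 in the controls. Its NBH pools were at 3.64 ± 0.13 (1 week) and 3.25 ± 0.01 (4 weeks), and its ABH pools at 3.31 ± 0.03 and 4.27 ± 0.08. All 8 pools of Rgs9 were separated with both dyes, with the 10-week control second lowest and ABH 4 weeks highest. Pde10a, the striatal phosphodiesterase that degrades cyclic AMP and cyclic GMP, stood at 1.54 ± 0.05, 3.35 ± 0.05, 3.49 ± 0.14 and 2.70 ± 0.01 in the controls. After NBH it was at 2.86 ± 0.06 (1 week) and 2.83 ± 0.07 (4 weeks), and after ABH at 2.74 ± 0.09 and 3.49 ± 0.18. Pde10a thus fell into an upper group, P14, P35 and ABH 4 weeks, and a lower group with the 10-week control and the other 3 surgery pools.

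The 2 oldest control pools also differed from each other. Between P35 and 10 weeks, 4 of the 8 genes fell to 0.75-fold or less with both dyes, beside 0.824% of 16259 genes. Pde10a fell by 0.79 on the log2 scale, Rgs9 by 0.77, Adora2a by 0.61 and Tac1 by 0.49. Drd2 differed by 0.02 between these pools, Gpr6 by -0.34, Ppp1r1b was at least 1.32-fold lower at 10 weeks and Penk at least 1.17-fold lower. The median of the 8 was -0.45 against 0.02 over all genes compared. Several genes outside the 8 that are made in deep structures were also lower at 10 weeks than at P35. They were 3 of 5 cholinergic neuron genes and 4 of 8 markers of the hypothalamus and basal forebrain compared. Among the latter was the peptide hormone gene Oxt, which stood at 1.49 in P35 and at -1.20 at 10 weeks. Other deep structures did not share this: 0 of 5 thalamus markers compared were lower, with a median of -0.12. Of the lateral septum markers 1 of 4 was lower, with a median of -0.03. Of the 12 cortical excitatory neuron markers none passed either limit, with a median of 0.03. Oligodendrocyte markers were lower as well for 4 of 8, with a median of -0.49 over the 7 not saturated in both pools. The myelin genes Mobp, Cnp, Mag and Mog changed by -1.16, -0.84, -0.74 and -0.49. The part of these structures and cells in the difference was not tested.

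**Figure D2:**
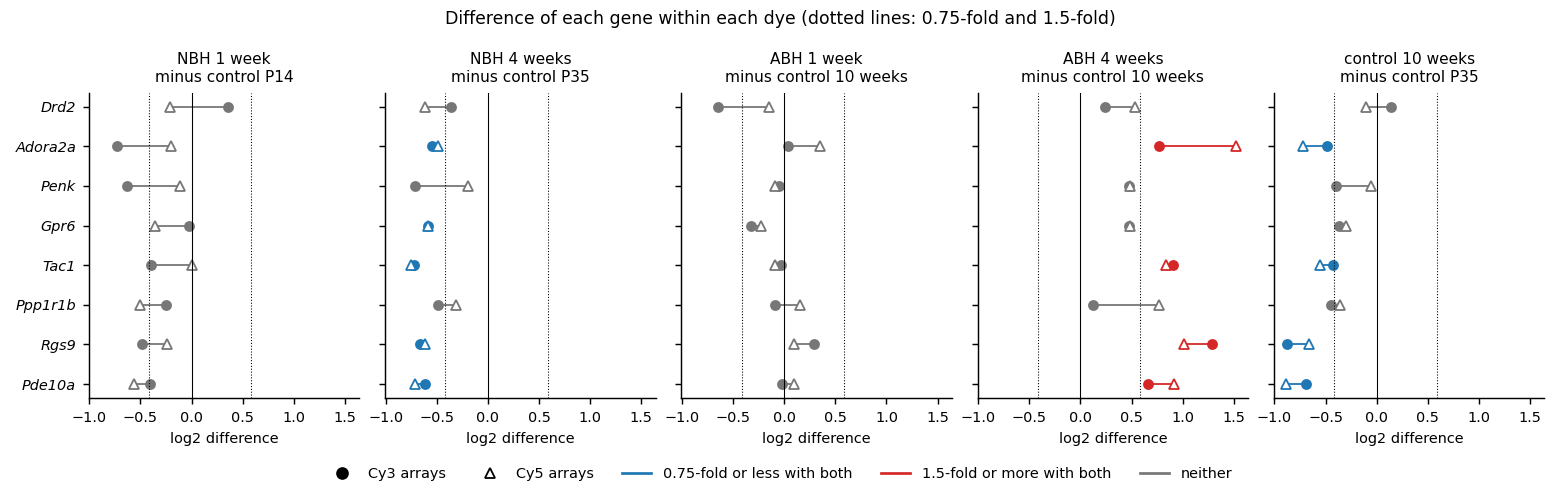
Difference of each gene between 2 pools with Cy3 (filled circle) and Cy5 (open triangle), on the log2 scale, for the 4 surgery comparisons and for the 10-week against the P35 control; dotted lines mark 0.75-fold and 1.5-fold, and color marks genes past a limit with both dyes. The 8 genes lie left of 0 with both dyes in NBH 4 weeks and right of 0 with both dyes in ABH 4 weeks.

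At 4 weeks after neonatal hemisuction the 8 genes were lower than in the P35 control. In this comparison 5 of 8 were at 0.75-fold or less with both dyes, beside 0.762% of the 15873 genes compared, and all 8 were below 0 with both dyes. Tac1 fell from 3.89 to 3.16 with Cy3 and from 4.11 to 3.36 with Cy5, a mean change of -0.74 ± 0.02, or 1.67-fold lower. Pde10a changed by -0.67 ± 0.07, Rgs9 by -0.64 ± 0.03, Gpr6 by -0.58 ± 0.00 and Adora2a by -0.52 ± 0.04. The differences of these 5 exceeded the spread of the dyes. Drd2 changed by -0.36 with Cy3 and -0.62 with Cy5, so only the second passed the limit. Penk was at least 1.37-fold and Ppp1r1b at least 1.32-fold lower, since both were saturated in P35. The median of the 8 was -0.55 against 0.04 over all genes compared. Set against the 10-week control instead, the median was -0.11, against 0.02 over all genes compared. Of the 8 genes 1, Drd2, passed the limit, beside 531 of 16246 genes lower.

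The other genes of medium spiny neurons, written down with earlier results known, moved in the same direction after 4 weeks of neonatal hemisuction. Of 33 compared, 12 (36.4%) were lower and 0 higher, with a median of -0.33. Drd1, the dopamine receptor of the direct pathway, fell by 0.82, the transcription factor Isl1 by 0.74 and the solute carrier family gene Slc35d3 by 0.83. They were the 3 of 7 other direct pathway genes that passed the limit. Over all 7 the median was -0.20, with values from -0.83 to 0.09 and 1 above 0. Of the lower genes shared by both pathways, Syndig1l fell by 1.01, the tryptophan-degrading enzyme gene Ido1 by 0.86, Serpina9 by 0.86 and the sodium channel subunit gene Scn4b by 0.69. Of the 27 genes of general dopamine and cyclic AMP signaling, 21 were not saturated in both pools, and 0 of these passed a limit, with a median of 0.01. All 5 cholinergic neuron genes were lower, by 0.60 for Chat, the acetylcholine-synthesizing enzyme, to 1.52 for Lhx8, a transcription factor of forebrain cholinergic neurons. Of the 8 hypothalamic and basal forebrain markers compared, 5 were lower, with Oxt at -2.12 against 1.49 in P35, while 0 of 12 cortical excitatory neuron markers passed a limit and their median was 0.15. Choroid plexus markers were higher for 3 of 8, with the transthyretin gene Ttr up by 4.90. Olfactory bulb markers were lower for 2 of 5 and higher for 0. Thalamus markers were lower for 1 of 5 compared and lateral septum markers for 1 of 4. The part of these other cells and tissues in the lower levels was not tested.

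At 4 weeks after adult hemisuction the 8 genes were higher than in the 10-week control. Here 4 of 8 were at 1.5-fold or more with both dyes, beside 0.448% of 16294 genes compared, and all 8 were above 0 with both dyes. Rgs9 rose from 3.04 to 4.33 with Cy3 and from 3.20 to 4.21 with Cy5, a mean change of 1.15 ± 0.19, or 2.22-fold. Adora2a rose from 1.02 to 1.78 with Cy3 and from 0.81 to 2.33 with Cy5, which gave 1.14 ± 0.53, or 2.21-fold, with the widest spread of the 8. Tac1 rose by 0.87 ± 0.05 and Pde10a by 0.79 ± 0.17. Rgs9 was the 13th and Adora2a the 15th of all genes compared when ranked from the largest rise. Drd2 changed by 0.39 ± 0.21, Gpr6 by 0.48 ± 0.01 and Ppp1r1b by 0.45 ± 0.46, without passing the limit with both dyes, and Penk was at least 1.39-fold higher. The median of the 8 was 0.63 against 0.07 over all genes compared. Set against the P35 control instead, 0 of the 8 passed a limit, beside 562 genes higher and 155 lower of 16175. The median was then 0.31, against 0.11 over all genes compared, and Pde10a differed by -0.00.

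Among the other medium spiny neuron genes, 9 of 32 compared (28.1%) were higher in ABH 4 weeks and 0 lower, with a median of 0.44. In the direct pathway Slc35d3 rose by 0.98 and Drd1 by 0.72, the 2 of 7 other direct pathway genes that passed the limit. Over all 7 the median was 0.39, with 5 above 0 and 2 below 0. The opioid precursor gene Pdyn had the lowest value, -0.39, and was below 0 with both dyes. Of the shared genes, Ido1 rose by 1.28, Serpina9 by 0.97, the striatal adenylyl cyclase gene Adcy5 by 0.78 and the retinoic acid receptor gene Rarb by 0.69. Of the 21 genes of dopamine and cyclic AMP signaling not saturated in both pools, 0 passed a limit, with a median of 0.03. Cortical excitatory neuron markers had a median of -0.24, and 1 of 12 was lower. The vesicular glutamate transporter gene Slc17a7 stood at 2.58 in the control and 1.97 in ABH 4 weeks. Cholinergic genes had a median of 0.35 with 0 of 5 past a limit. Choroid plexus markers were higher for 6 of 8, Ttr by 5.75, and the astrocyte gene Gfap by 0.95. Olfactory bulb markers were lower for 4 of 5, as they also were in ABH 1 week. The part of these other cell types and tissues was not tested.

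At 1 week the 8 genes were mostly below the control after neonatal hemisuction, with wide spread between dyes, and scattered around 0 after adult hemisuction. In NBH 1 week, 0 of the 8 genes passed a limit with both dyes, beside 0.427% of 15469 genes lower and 0.472% higher, although 7 of 8 were below 0 with both dyes. Pde10a changed by -0.49 ± 0.11, Adora2a by -0.46 ± 0.37, Ppp1r1b by -0.38 ± 0.18, Penk by -0.37 ± 0.36 and Rgs9 by -0.36 ± 0.18. Gpr6 and Tac1 changed by -0.19 ± 0.24 and -0.20 ± 0.28, and Drd2 by 0.07 ± 0.40, so these 3 differences were smaller than their spread. The median was -0.37 against 0.06 over all genes, and it was -0.40 with Cy3 alone and -0.23 with Cy5 alone. With Cy3 alone 3 genes passed the lower limit (Adora2a, Penk and Rgs9), and with Cy5 alone 2 did (Ppp1r1b and Pde10a). The share of all genes past the limit with a single dye is not given here, and 0.427% is for both dyes. Over all genes compared, the SD of the difference between dyes was 0.32 here and 0.19 in NBH 4 weeks. Of the other medium spiny neuron genes, 2 of 32 were lower, Syndig1l by 0.70 and Scn4b by 0.48. Choroid plexus markers were higher for 6 of 8, Ttr by 6.53. Their part in these values was not tested.

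In ABH 1 week, 0 of the 8 genes passed a limit with both dyes, beside 6.34% of 16320 genes lower and 4.5% higher. The largest difference was that of Drd2, -0.65 with Cy3 and -0.15 with Cy5, and the 8 ranged from -0.40 to 0.20 with a median of -0.01 against -0.07 over all genes. Scaling by the array median instead moved the median of all genes by 0.26 and that of the 8 to 0.24, and their distance from all genes was 0.06 under both. Under that scaling 1271 genes were higher and 308 lower, in place of 734 and 1034. Of the other medium spiny neuron genes 1 of 32 was lower, the direct pathway opioid precursor Pdyn, by 0.72. Microglia and macrophage markers were higher for 5 of 8 and Gfap by 2.93 in this pool. Olfactory bulb markers were lower for 4 of 5, with a median of -0.79, and cholinergic neuron genes for 2 of 5. In both lists 0 were higher. The part of these cells and tissues was not tested.

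**Figure D3:**
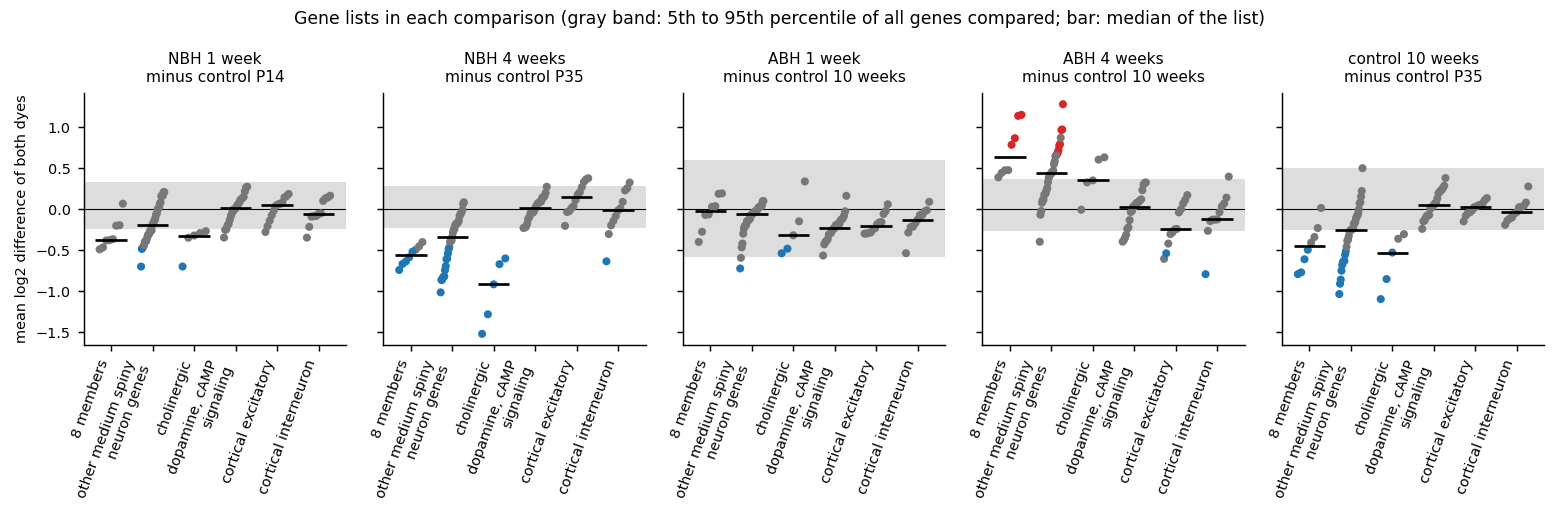
Mean log2 difference of both dyes (vertical axis) for each gene of 6 lists in the 4 surgery comparisons and in the 10-week against the P35 control; bars are list medians, the gray band spans the 5th to 95th percentile of all genes compared, and color marks genes past a limit with both dyes. In NBH 4 weeks the medians of the 8 genes and of the other medium spiny neuron genes are -0.55 and -0.33, and in ABH 4 weeks they are 0.63 and 0.44, while dopamine and cyclic AMP signaling genes stay near 0 in both.

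Direct and indirect pathway genes were compared as single genes and as lists. Tac1 exceeded the median of the 4 indirect genes (Drd2, Adora2a, Penk and Gpr6) in size at 4 weeks, by -0.24 in NBH, with -0.16 and -0.22 in the 2 dyes, and by 0.39 in ABH, with 0.43 and 0.32. This compares a single gene with 4, of which Penk is limited by saturation. In ABH 4 weeks Adora2a rose by 1.14, more than Tac1 at 0.87, while Drd2 and Gpr6 rose less. Over the longer lists, 8 direct and 6 or 7 indirect genes, the median direct change minus the median indirect change was -0.02 in NBH 4 weeks and 0.04 in ABH 4 weeks. In ABH 4 weeks it was 0.24 with Cy3 and -0.04 with Cy5, a difference of sign between dyes. The lists were widely spread, so a difference of medians near 0 does not show that both pathways moved alike. The 7 other direct pathway genes ranged from -0.83 to 0.09 in NBH 4 weeks and from -0.39 to 0.98 in ABH 4 weeks. The 3 other indirect pathway genes ranged from -0.40 to -0.01 in NBH 4 weeks, and the 2 compared in ABH 4 weeks were at 0.12 and 0.18. The receptor pair itself differed more. Drd1 changed by -0.82 and Drd2 by -0.49 in NBH 4 weeks, and by 0.72 and 0.39 in ABH 4 weeks. The gap was -0.46 with Cy3 and -0.19 with Cy5 in NBH 4 weeks, and 0.44 and 0.22 in ABH 4 weeks. Drd2 had the dimmest probe of the 8 genes, at 186.0 to 535.0 signal units. Between P35 and 10 weeks Drd1 changed by -0.75 while Drd2 changed by 0.02, a gap present with both dyes at -0.90 and -0.63. In NBH 1 week Drd1 changed by -0.47 and Drd2 by 0.07, and the gap was -0.74 with Cy3 and -0.34 with Cy5. In ABH 1 week Drd1 changed by -0.11 and Drd2 by -0.40, with a gap of 0.56 with Cy3 and 0.00 with Cy5.

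The 8 genes followed one pattern over the pools, which their joint choice in part fixes. Centered on each gene's own mean, their average was -1.44 in P7, 0.44 in P14, 0.42 in P35 and -0.03 at 10 weeks. At 1 and 4 weeks it was 0.14 and -0.14 after NBH, and -0.07 and 0.69 after ABH. Pearson's r between 2 of them over the 8 pools ranged from 0.72 to 0.99 over 28 pairs, and without P7 from 0.20 to 0.97 with a median of 0.87. These values describe single RNA pools that share slides. The lowest ones without P7 all involved Drd2, at 0.20 with Adora2a and 0.38 with Ppp1r1b.

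**Figure D4:**
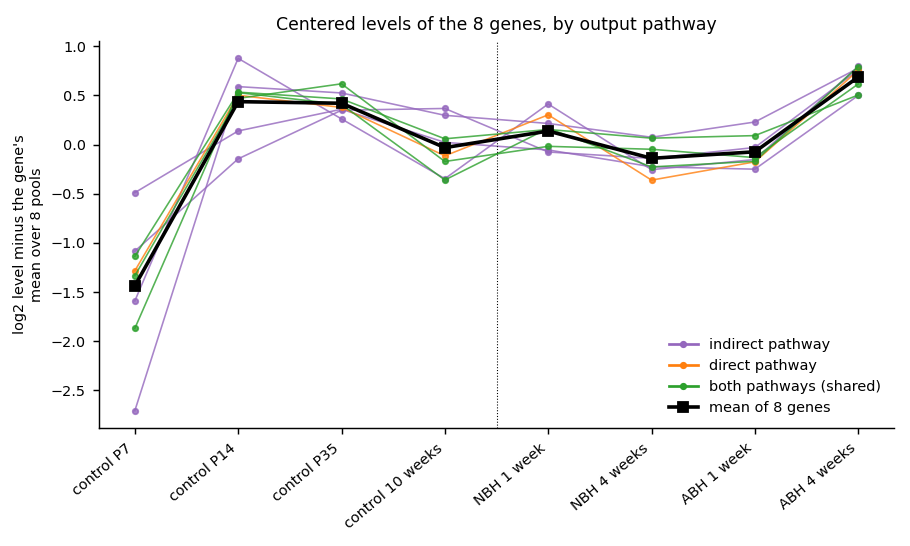
Level of each gene minus its own mean over the 8 pools, on the log2 scale (vertical axis), colored by pathway, with the mean of all 8 as a black line; the dotted line separates controls from surgery pools. The mean runs from -1.44 in control P7 to 0.69 in ABH 4 weeks.

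The gene with the pattern most like their mean over the 8 pools was Has1, a hyaluronan synthase, with r = 0.99 among 7603 genes that varied and were well above background on all arrays. Abca8b, Smad7, Nexn, Strip2, Entpd3, Atp6v0a2, Six3 and Cyld were among those that followed, down to r = 0.97. Only 1 of the first 10 genes of this ranking was on the medium spiny neuron lists. Because P7 stands far from the rest, the ranking was repeated without it, a choice made after these values were seen. It then began with Slc35d3 (r = 0.995), Nexn (0.993), Ido1 (0.981), Stk32a (0.974) and Adcy5 (0.965). Of its first 10 genes, among 4861 ranked, 5 were on the medium spiny neuron lists, which hold 34 genes. Those lists were written with earlier results of these pools known, so the count is a description only. Nexn, an actin-binding protein gene, ranked high with and without P7 and changed by -0.64 in NBH 4 weeks and 1.02 in ABH 4 weeks.

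Rgs9 and Pde10a had 3 probes each, and these did not all move alike. The second Rgs9 probe, for the same transcript, changed by -0.77 in NBH 4 weeks and 1.20 in ABH 4 weeks, close to the first at -0.64 and 1.15. The third, for a different RefSeq transcript of Rgs9 and much dimmer, changed by -0.22 and 0.21, and by -0.52 in ABH 1 week where the first changed by 0.19. The second Pde10a probe changed by -0.72 and 0.70, like the first at -0.67 and 0.79. The third was well above background on only 6 of 16 arrays and is not interpreted. The other 6 genes had 1 probe.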

How the data were processed

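RNA of 4 mice was pooled in each of the 8 conditions, labeled once with each dye and hybridized to 16 Agilent arrays. The authors scanned the arrays and deposited linear spot intensity values from Agilent Feature Extraction 11.0.1.1, per the submitters' processing notes. The deposited table of processed intensity values was used as an alternative only. Every per-sample column used was mapped to a sample, and 0 were left unmapped. Only the labeled channel of each array was read. Its median signal was background-corrected with limma 3.58.1 in R 4.3.3 (normexp, offset 50), put on the log2 scale and reduced by the array's 75th percentile. Control spots and outlier spots were left out and spots of a probe averaged. RefSeq accessions named 26582 of 55681 probes (20145 genes, named through the GRCm38.p6 gene table), and each gene was read from its brightest probe. Python 3.11.15 with pandas 2.3.3 did the rest.

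Pools were compared within a dye. A gene entered a comparison if both arrays of either pool had it well above background. An array not well above background was held at the lowest well-above-background value of that array or at its own value if higher. A gene was called higher at 1.5-fold or more, and lower at 0.75-fold or less, with both dyes, the limits taken from the study. No test was possible with 1 pool a condition. The number of arrays limits the precision.

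The 8 genes and all gene lists were chosen with earlier results of these data known. The genes named beside the 8 were the listed genes of medium spiny neurons and of dopamine and cyclic AMP signaling past a limit (up to 5 a list and comparison, largest change first). To them were added the 10 genes most alike over the 8 pools (well above background on all arrays, SD over pools of 0.2 or more) and defining markers of other cell types. Some genes that meet this rule are not reported here by name. The lists for opioid and tachykinin genes, dopaminergic neurons, cortical interneurons, oligodendrocytes, endothelium, thalamus and lateral septum were computed too. Alternatives covered background correction, scaling, the filter on dim probes, the limits, the probe rule, the control pool and each dye alone.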

Additional observations from a re-analysis of the deposited data

Results flagged for a closer look

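At 4 weeks every one of the 8 genes was below its control with both dyes after neonatal hemisuction and above its control with both dyes after adult hemisuction. The ABH 4 weeks change minus the NBH 4 weeks change was 1.79 on the log2 scale for Rgs9, 1.66 for Adora2a, 1.61 for Tac1, 1.45 for Pde10a, 1.06 for Gpr6, 0.93 for Penk, 0.88 for Drd2 and 0.84 for Ppp1r1b. At 1 week the same opposition of both dyes was seen for Adora2a, with a difference of 0.66, and for Rgs9, with a difference of 0.55. These differences between neonatal and adult surgery were not tested, since each condition is 1 pool, and the control pools differ too: the P35 control stood above the 10-week control by 0.77 for Rgs9 and 0.61 for Adora2a. The values of Penk and Ppp1r1b include saturated arrays.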

How the results depend on the processing

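With each pool kept against its own control, all 96 alternative values of the 8 genes in NBH 4 weeks stayed below 0 (-0.96 to -0.19). All 96 in ABH 4 weeks stayed above 0 (0.12 to 1.52). Many of these values are not separate checks. Changing only the limits or the filter on dim probes repeats the main values, as all 8 probes were well above background throughout. Each dye alone repeats the values by dye given above, and the probe rule leaves genes with 1 probe unchanged. The control pool mattered most. With the 10-week control for NBH 4 weeks, 1 gene was called and the median was -0.11, with Adora2a at 0.092, Rgs9 at 0.13 and Pde10a at 0.12. With the P35 control, ABH 4 weeks had 0 called, a median of 0.31 and Pde10a at -0.0018. Against P35, ABH 1 week had 4 lower and a median of -0.48, beside 320 of 15900 genes lower and a median of -0.04 over all genes. Against P35, NBH 1 week had 1 lower, with the count over all genes not given here. These controls are not matched for age. At 2-fold limits 0 genes were called in NBH 4 weeks and 1 in ABH 4 weeks, and 1.5-fold limits in both directions left 3 in NBH 4 weeks, by their construction. Median scaling gave 1 lower gene in NBH 1 week and medians of -0.62 in NBH 4 weeks and 0.24 in ABH 1 week. The processed signal gave a median of -0.64 in NBH 4 weeks. The deposited table without scaling gave 3 lower genes in NBH 1 week, 2 higher in ABH 4 weeks, and medians of -0.87 in NBH 4 weeks and 0.10 in ABH 1 week. The cause was not tested. Single dyes called 2 to 3 genes in NBH 1 week and 0 to 1 in ABH 1 week, counts given without the share over all genes. Without the saturated Penk and Ppp1r1b, chosen after seeing the data, the medians were -0.61 in NBH 4 weeks and 0.83 in ABH 4 weeks. Over all genes, the 73 higher and 66 lower of NBH 1 week became 60 and 132 with median scaling, 46 and 101 with quantile normalization and 171 and 186 with the processed signal. The 34 and 121 of NBH 4 weeks became 20 and 173, 21 and 142, and 83 and 363. The 73 and 30 of ABH 4 weeks became 57 and 48, 61 and 46, and 137 and 116, and the 734 and 1034 of ABH 1 week became 1271 and 308, 972 and 394, and 940 and 1667. The planned use of the mean signal was not run, as no mean signal was used here. No paired analysis was possible because the 2 arrays of a pool repeat the same RNA and every comparison was already made within a dye. Signal limits the top of the range, where Penk and Ppp1r1b saturate, more than the bottom for these 8 genes.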
